A study of Mus musculus with 8 samples.

Results

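Motile cilia are the beating projections that clear mucus from the airway, and the genes described here encode the axoneme, the microtubule machine inside each cilium, together with the factors that assemble it. The set was chosen by gene name: dynein heavy, intermediate and light chains, dynein assembly factors, radial spoke heads, tektins, cilia and flagella associated proteins, nexin-dynein regulatory complex proteins, the Spef and Efhc genes, and 10 single genes such as Hydin, Ccdc39, Ccdc40 and Zmynd10. The rule matched 86 of the 25124 gene symbols in the table and used no measured value, but it was chosen with earlier results of these data known. Expression was measured by RNA-seq in cells labelled as airway epithelial, which had been isolated from C57BL/6 mouse lung by flow cytometric sorting. The 4 groups, with 2 libraries each, were STAT3-cKO given house dust mite (cKO HDM), STAT3-WT given house dust mite (WT HDM), STAT3-cKO given PBS (cKO PBS) and STAT3-WT given PBS (WT PBS). HDM is used to give mice allergic airway inflammation, STAT3 is a cytokine-activated transcription factor, and cKO stands for a conditional knockout. The sources used here do not give the cell type in which Stat3 was deleted, the driver of the deletion, the HDM schedule, or the age and sex of the mice. Whether a group's 2 libraries were made from different mice is not stated either, so p-values reflect only how far these libraries differ, which may be technical.

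In a motile cilium, outer and inner rows of dynein arms walk along neighbouring doublet microtubules, and the radial spokes and the central pair apparatus regulate them. In the airway these genes are used by multiciliated cells, and the transcription factors Foxj1 and Rfx3 are known regulators of them. Loss of many of them, such as DNAH5, CCDC39, CCDC40 and RSPH4A, causes primary ciliary dyskinesia in humans.

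RFX factors are known to bind the X-box, here searched as GTNNCC, any 3 bases and GNAAC on both strands of RefSeq promoters (GRCm38.p6), which span 250 bases before to 50 bases after each annotated start. An entry was found for 73 of the 86 members, and 14 of them (19.2%) held at least 1 match, against 673 of 27025 genes in the RefSeq table (2.49%). The core GTTGCC, which can lie inside an X-box, was found in 28 members (38.4%), against 14.1% of all genes, and the forkhead motif GTAAACA in 4 members (5.48%), against 4.05%. In 9 of the 14 members a match began within the 40 bases before the annotated start, and in 2 others, Tekt4 and Zmynd10, at the start base itself. These matches are shown because they are a feature the naming rule did not use. Each is written 5′ to 3′ in motif orientation with 8 flanking bases, and the capitals mark the 14 matched bases. The match lies at chr8:110266956-110266969 for Hydin, chr16:44394772-44394785 for Cfap44, chr12:69198433-69198446 for Dnaaf2, chr4:34730216-34730229 for Cfap206, chr2:145934776-145934789 for Cfap61 and chr1:172521111-172521124 for Cfap45. Relative to the gene it is on the opposite strand in all of these except Cfap61.
Hydin: taccatctGTTGCCACAGCAACcgcagagt
Cfap44: ttactgcgGTTGCCATAGCAACgtccctcc
Dnaaf2: cgtgctttGTTGCCATAGTAACgcctggga
Cfap206: gcagtcgcGTAACCGTGGAAACggaacgcg
Cfap61: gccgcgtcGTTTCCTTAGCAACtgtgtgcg
Cfap45: gctgacgcGTTACCATAGCAACccaagaac

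For Hydin, whose protein sits on the central pair, the 250 bases before the annotated start (chr8:110266727-110266976, plus strand of GRCm38.p6) place the match, in capitals, next to that start.
Hydin, before the start: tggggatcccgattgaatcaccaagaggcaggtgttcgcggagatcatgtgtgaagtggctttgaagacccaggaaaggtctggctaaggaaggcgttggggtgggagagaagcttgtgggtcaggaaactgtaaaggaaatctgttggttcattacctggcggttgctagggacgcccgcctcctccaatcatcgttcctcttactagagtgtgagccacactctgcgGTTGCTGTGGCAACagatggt
The windows of Dnah5, Dnah6, Dnah9 and Ccdc40 held no match to these letters.

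The recovered read totals were 510931 and 454248 in cKO HDM, 593200 and 317735 in WT HDM, 232556 and 298311 in cKO PBS, and 480163 and 411098 in WT PBS, which is shallow for RNA-seq. A count of 0 allows up to 3 reads, or 1.96 to 4.88 normalized counts depending on the library. Log2 values of the 2 libraries of a group correlated across genes at 0.560 to 0.771. Stat3 had 76.9 and 92.2 normalized counts in cKO HDM, 133.7 and 157.3 in WT HDM, 56.9 and 96.5 in cKO PBS, and 75.8 and 40.9 in WT PBS. Stat3 was thus below WT in cKO libraries given HDM but not in those given PBS, and neither difference passed (log2 difference −0.78 ± 0.39 (SE), adjusted p = 0.549 under HDM, and 0.41 ± 0.39, adjusted p = 0.845 under PBS, limma). The deleted exons are not named in the sources used here, so the counts need not show the deletion, and genotypes are those of the libraries as labelled. Epcam, a general epithelial marker, had 99.7 to 179.1 normalized counts in the 8 libraries.

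Of the 86 members, 73 reached a mean of 10 normalized counts over the 8 libraries and were tested, and 72 of these were above 0 in every library. Their means ran from 10.2 to 379.8 normalized counts, with a median of 59.3. Summed over all 86 members, the cKO HDM libraries held 7010 and 6575 normalized counts, the WT HDM libraries 3944 and 3750, the cKO PBS libraries 5892 and 6219, and the WT PBS libraries 6166 and 6534. Both WT HDM libraries lay below the other 6. The 2 cKO HDM libraries were the highest by this sum, although 6575 in cKO HDM was close to 6534 in WT PBS. As shares of all reads, with exact Clopper-Pearson 95% intervals that cover counting error only, the members took 1.89% (1.85 to 1.93) and 1.74% (1.71 to 1.78) in cKO HDM. The WT HDM shares were 1.02% (0.994 to 1.05) and 0.916% (0.883 to 0.949), the cKO PBS shares were 1.56 and 1.64%, and the WT PBS shares were 1.68 and 1.75%. By share, cKO HDM replicate 2 was not above WT PBS replicate 2, so the cKO HDM libraries were not the 2 highest. The WT HDM mean was the lowest of the 4 group means in 59 of the 73 tested members (80.8%), against 29.6% of all 7512 genes tested. Both WT HDM libraries were below the other 6 in 24 members (32.9%), against 6.16% of all genes. This low was not particular to the members. The WT HDM mean was also the lowest in 17 of 21 tested ciliated cell markers outside the set (81.0%) and 9 of 11 club cell markers (81.8%). Both WT HDM libraries were below the other 6 in 7 of these ciliated markers (33.3%) and 6 of the club cell markers (54.5%).

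**Figure D1:**
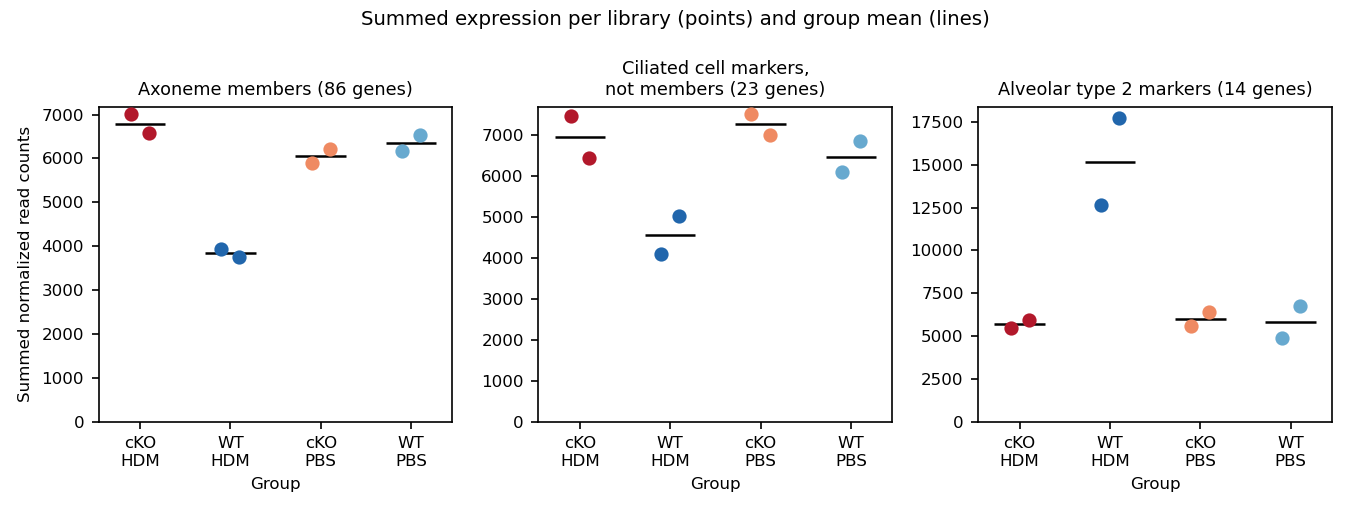
Summed normalized read counts per library (points, 2 per group) with the group mean (line), for the 86 axoneme members, 23 ciliated cell markers that are not members, and 14 alveolar type 2 markers. The WT HDM libraries are the lowest in the first 2 panels, at 3944 and 3750 for the members, and the highest in the panel of alveolar markers.

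Other marker lists also differed in WT HDM, some lower and some higher. The 23 ciliated cell markers that are not members, of which Sec14l3 alone made up 55.3% of the summed level, reached 7463 and 6433 normalized counts in cKO HDM, 4092 and 5033 in WT HDM, 7518 and 7011 in cKO PBS, and 6097 and 6847 in WT PBS. The ratio of the member sum to this marker sum was 0.939 and 1.02 in cKO HDM, 0.964 and 0.745 in WT HDM, 0.784 and 0.887 in cKO PBS, and 1.01 and 0.954 in WT PBS, so that the groups overlapped on this ratio. The marker list includes Foxj1 and Rfx3, the known regulators of axoneme genes named above. The ratio, and the scaling to these markers used below, are therefore not an independent gauge of ciliated cell number. Fewer ciliated cells and less of these RNAs per ciliated cell cannot be told apart in bulk samples.

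Summed alveolar type 2 markers (14 genes, all detected in every group) ran from 5447 to 5931 normalized counts in cKO HDM, 12640 to 17730 in WT HDM, 5586 to 6408 in cKO PBS and 4867 to 6766 in WT PBS. Endothelial markers (13 genes) summed to 224 to 321 in cKO HDM, 1258 to 1300 in WT HDM, 277 to 389 in cKO PBS and 284 to 309 in WT PBS, and fibroblast and smooth muscle markers (10 genes) to 105 to 106 in cKO HDM, 1219 to 1297 in WT HDM, 34.2 to 109 in cKO PBS and 65.8 to 104 in WT PBS. On each of these 3 lists both WT HDM libraries were the highest. Leukocyte markers (12 genes) summed to 1.45 to 2.49 in cKO HDM, 73.7 to 245 in WT HDM, 0 to 2.54 in cKO PBS and 3.06 to 14.6 in WT PBS, with Siglecf at 0 in all 8 libraries. In cKO HDM 9 of these 12 were at 0 in both libraries, against 1 in WT HDM, 11 in cKO PBS and 8 in WT PBS. Club cell markers (11 genes) summed to 8011 to 10520 in cKO HDM, 7045 to 8778 in WT HDM, 12390 to 16620 in cKO PBS and 9905 to 10530 in WT PBS. Alveolar type 1 markers (9 genes) summed to 358 to 398 in cKO HDM, 708 to 711 in WT HDM, 376 to 486 in cKO PBS and 410 to 453 in WT PBS, and mucous cell markers (8 genes) to 2052 to 5106 in cKO HDM, 1626 to 2716 in WT HDM, 1085 to 1304 in cKO PBS and 426 to 799 in WT PBS. The WT HDM libraries thus stood apart with more transcripts of alveolar, endothelial, stromal and white blood cells. Of the 11 club cell markers, 10 were lower under HDM than under PBS in WT and 8 in cKO. In 8 of them in WT and 6 in cKO both HDM libraries were below both PBS libraries, against 20.8% and 16.7% of all genes. The part of these cells in the axoneme results was not tested.

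Levels were also divided by the kilobases of merged exons, which join the exons of all annotated transcripts of a gene. Which transcripts the cells use is not known, so a gene with many or long annotated transcripts can rank too low. On this scale the most abundant member over the 8 libraries was Rsph1, a radial spoke head protein, at 72.1 normalized counts per kb. Dnali1, an inner arm light chain, had 68.3, and Rsph4a, another spoke head protein, had 62.3. Cfap126, a protein inside the doublet microtubule, followed at 60.3, Cfap298, which takes part in dynein arm assembly, at 54.6, and Tekt1, a tektin of the doublet, at 50.5. Standard deviations of these 6 genes over the 8 libraries were 9.99 to 24.5. This spread includes the differences between groups, and the order of these neighbours was not tested. The order also differed by group: Rsph1 was highest in cKO HDM at 95.3 and in WT PBS at 82.5, Tekt1 in WT HDM at 46.1, where Rsph1 had 43.5, and Dnali1 in cKO PBS at 94.6, where Rsph1 had 66.9. Among the heavy chains, the motor subunits, Dnah5 of the outer arm was highest at 24.3 ± 7.06 (SD, n = 8 libraries), followed by Dnah6 of the inner arm at 18.9 ± 5.66, Dnah9 of the outer arm at 10.3, and Dnah12, Dnah3 and Dnah10 of the inner arm between 8.11 and 8.91. Dnah11 of the outer arm and Dnah1 of the inner arm had 5.61 and 5.59, and Dnah7c, Dnah2, Dnah7b and Dnah7a 1.33 to 2.60. Dnah8 and Dnah17, which are known from the sperm flagellum, had 0.247 and 0.225 and were not tested. Dnah7a, Dnah7b and Dnah7c are close copies, so their reads may have been divided between them. Their merged exon lengths still differed, at 12767, 19980 and 12603 bases.

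**Figure D2:**
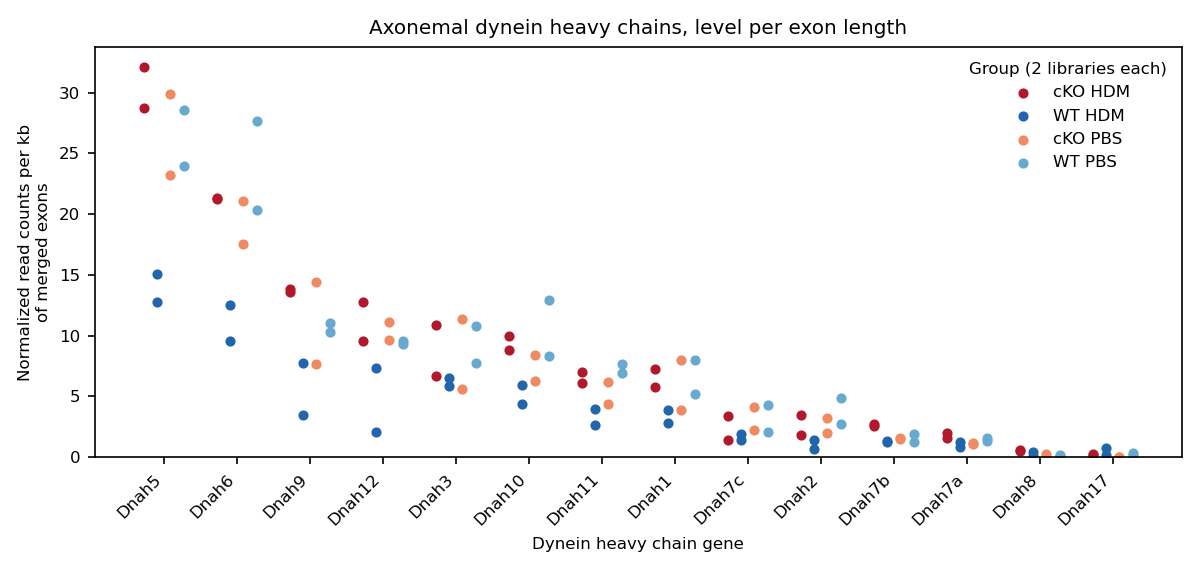
Level of each axonemal dynein heavy chain gene per kilobase of merged exons (normalized read counts per kb) in each library, with 2 points per group and genes in order of their mean over the 8 libraries. Dnah5 and Dnah6 lead in all groups, and their WT HDM points lie apart below the other groups.

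The first comparison was cKO against WT under HDM, which sets the libraries labelled cKO and WT side by side after allergen. It cannot tell a change within cells from a change in the mix of cells. Of the 73 tested members, 72 had a higher mean log2 level in cKO HDM than in WT HDM and 1, Cfap97, had a difference of −0.02. The median difference over the members was 0.85, against 0.02 over all genes tested. Only Dnah5 passed at an adjusted p under 0.05 (1 of 73 members higher and 0 lower), where 0.572% of all genes passed in either direction and 0.0532% were higher. edgeR also called 1 member higher, Dnah5, where it called 0.719% of all genes in either direction and 0.0666% higher. DESeq2 called 2 higher, Dnah5 and Ccdc40, against 0.383% of all genes with an adjusted p, and gave none to Cfap410 and Rsph14. At an unadjusted p under 0.05, 29 members were higher and 0 lower (5.02% of all genes higher and 4.58% lower). The cKO HDM libraries were both above the WT HDM libraries in 55 members and both below in 0, against 21.1% and 21.9% of all genes. Relative to the ciliated cell markers that are not members, the split was 49 higher to 24 lower with a median of 0.22, where the median of all genes shifted to −0.61, and no member passed. Of the members named for abundance, p-value or human disease, Ccdc39, Cfap126, Cfap157, Cfap298, Cfap36, Cfap45, Cfap46, Dnaic1, Drc3, Spag16, Tekt1 and Zmynd10 turned to a negative difference with that scaling. The heavy chains Dnah3 and Dnah7c also did.

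Dnah5 (chr15:28203752-28472052, plus strand, GENCODE M21 on GRCm38), an outer arm motor often mutated in human primary ciliary dyskinesia, had 449.2 and 502.5 normalized counts in cKO HDM and 199.6 and 235.9 in WT HDM. In cKO PBS it had 466.9 and 363.2 and in WT PBS 375.1 and 446.5. The WT HDM libraries were the 2 lowest of the 8, and the 6 libraries of the other groups lay between 363.2 and 502.5. Dnah5 was higher in cKO HDM by 1.13 ± 0.24 (log2 scale, SE; adjusted p = 0.0439, limma), and every cKO HDM library was above every WT HDM library. The adjusted p was 0.250 and 0.327 without cKO HDM replicate 1 or 2, 0.112 and 0.322 without WT HDM replicate 1 or 2, and 0.104 and 0.107 without WT PBS replicate 1 or 2. It was 0.0171 and 0.0188 without cKO PBS replicate 1 or 2.

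Among the other outer arm genes, Dnah9, the heavy chain of the outer arms toward the tip of the axoneme, had 216.2 and 220.9 normalized counts in cKO HDM, 123.9 and 55.4 in WT HDM, 122.0 and 229.8 in cKO PBS, and 176.1 and 164.6 in WT PBS. Its difference under HDM, 1.39 ± 0.38, did not pass (adjusted p = 0.147, limma). Dnah11, its counterpart toward the base, had 101.6 and 88.0 normalized counts in cKO HDM against 56.7 and 38.7 in WT HDM, a difference of 1.00 ± 0.36 that did not pass (adjusted p = 0.352). The intermediate chains showed smaller differences, 0.69 ± 0.33 for Dnaic2 and 0.50 ± 0.42 for Dnaic1, and neither passed. In all 10 tested outer arm and docking genes the WT HDM mean was the lowest, and their median difference was 0.89.

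Of the inner arm genes, Dnah6 had 281.6 and 282.4 normalized counts in cKO HDM, 166.3 and 126.3 in WT HDM, 232.6 and 279.4 in cKO PBS, and 365.9 and 269.2 in WT PBS. Both WT HDM libraries were below all others. Its difference under HDM was 0.96 ± 0.26 and did not pass (adjusted p = 0.154, limma). Dnali1 had 175.6 and 154.5 in cKO HDM and 70.4 and 96.7 in WT HDM (0.99 ± 0.30, adjusted p = 0.194), and Cfap44, part of the tether that holds an inner arm dynein, had 164.7 and 220.1 in cKO HDM and 146.1 and 45.1 in WT HDM (1.22 ± 0.41, adjusted p = 0.300). Over the 12 tested heavy chains of both arms the median difference was 0.98, and the WT HDM mean was the lowest of the 4 in all 12.

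Ccdc40, which with Ccdc39 forms the ruler that sets the spacing of arms and spokes, had 259.8 and 278.2 normalized counts in cKO HDM, 141.5 and 130.2 in WT HDM, 227.7 and 233.7 in cKO PBS, and 205.9 and 276.4 in WT PBS. The WT HDM libraries were the lowest of the 8, and the difference of 0.98 ± 0.26 under HDM did not pass in limma (adjusted p = 0.134). Its partner Ccdc39 had 63.9 and 66.4 in cKO HDM and 50.9 and 68.3 in WT HDM, which overlapped (0.14 ± 0.47). Exons of Ccdc39 share 16.9% of their length with Ttc14 on the opposite strand, and the sources used here do not say whether strand was used in counting. In the nexin-dynein regulatory complex, which links neighbouring doublets, Drc1 had 179.2 and 167.8 in cKO HDM and 78.9 and 85.1 in WT HDM (1.07 ± 0.29, adjusted p = 0.150). Drc3 had 156.7 and 83.9 in cKO HDM and 79.6 and 145.7 in WT HDM, which overlapped (0.09 ± 0.36).

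Of the 7 tested radial spoke genes, which had the highest median difference of the roles at 1.12, Rsph1 had 127.0 and 134.6 normalized counts in cKO HDM, 63.9 and 55.4 in WT HDM, 78.1 and 105.4 in cKO PBS, and 120.9 and 105.5 in WT PBS. The difference under HDM was 1.12 ± 0.32 (adjusted p = 0.180, limma). Rsph4a, the other abundant spoke head gene, had 235.1 and 233.4 in cKO HDM and 144.1 and 153.4 in WT HDM (0.65 ± 0.26, adjusted p = 0.425). Cfap206 and Cfap61, proteins near the base of the spoke whose promoters carry the X-box matches printed above, differed by 1.13 ± 0.38 and 1.46 ± 0.48, and neither passed. Rsph14 had the widest difference of the members, 2.22, from 8.71 and 20.8 in cKO HDM and 3.26 and 1.29 in WT HDM, which are 1 to 25 reads.

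Central pair genes had a median difference of 0.92. Hydin had 241.6 and 267.4 normalized counts in cKO HDM, 174.1 and 103.1 in WT HDM, 208.2 and 271.8 in cKO PBS, and 250.3 and 320.1 in WT PBS, with both WT HDM libraries lowest (0.92 ± 0.29, adjusted p = 0.254, limma). Cfap54 had 89.3 and 92.2 in cKO HDM, 38.5 and 41.3 in WT HDM, 53.7 and 72.4 in cKO PBS, and 100.3 and 131.0 in WT PBS. The WT HDM libraries were again the lowest, and the WT PBS libraries the highest (1.17 ± 0.36 under HDM, adjusted p = 0.220). Spag17 differed by 1.47 ± 0.46 (adjusted p = 0.246), Spag16 by 0.58 ± 0.32 and Spef2 by 0.93 ± 0.52, and Cfap46 overlapped between the groups at 0.39 ± 0.47.

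Proteins inside the doublet microtubules had the smallest median, 0.61, together with the members of no assigned role, also 0.61. Tekt1 had 91.4 and 68.1 normalized counts in cKO HDM and 68.5 and 81.2 in WT HDM (0.08 ± 0.37), and Cfap45 had 129.9 and 66.4 in cKO HDM and 92.6 and 91.5 in WT HDM (0.01 ± 0.38). In both the groups overlapped, and the 95% intervals of the difference, −0.72 to 0.88 for Tekt1 and −0.79 to 0.82 for Cfap45, include the median of the set for Tekt1 and end just below it for Cfap45. Cfap53 differed by 0.99 ± 0.37 (adjusted p = 0.382) and Cfap126 by 0.61 ± 0.40, and neither passed. For the assembly factors, which build dynein arms in the cytoplasm, the median was 0.71. Dnaaf2 had 57.3 and 55.6 in cKO HDM, 34.6 and 14.2 in WT HDM, 21.1 and 19.05 in cKO PBS, and 35.2 and 35.5 in WT PBS (1.31 ± 0.55 under HDM, adjusted p = 0.455), and 32.7% of its exon length is shared with an opposite-strand gene. Both cKO HDM libraries were the highest of the 8 for Dnaaf2. Zmynd10 and Cfap298 differed by 0.61 ± 0.41 and 0.51 ± 0.38, and neither passed.

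**Figure D3:**
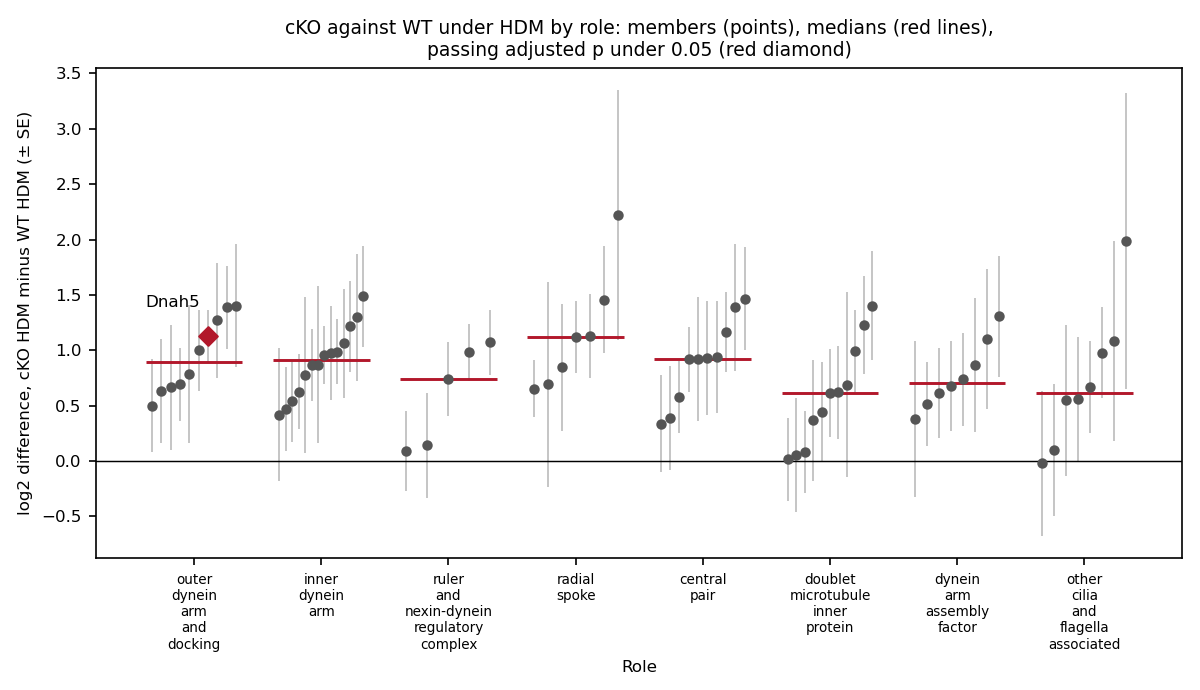
Log2 difference of each tested member, cKO HDM minus WT HDM, on the log2(value + 1) scale with its standard error, by role, where red lines are role medians and the red diamond is the member with an adjusted p under 0.05. With the deposited normalization all points except Cfap97 lie above 0 (24 lie below 0 relative to the ciliated cell markers), and the role medians run from 0.61 to 1.12.

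**Figure D4:**
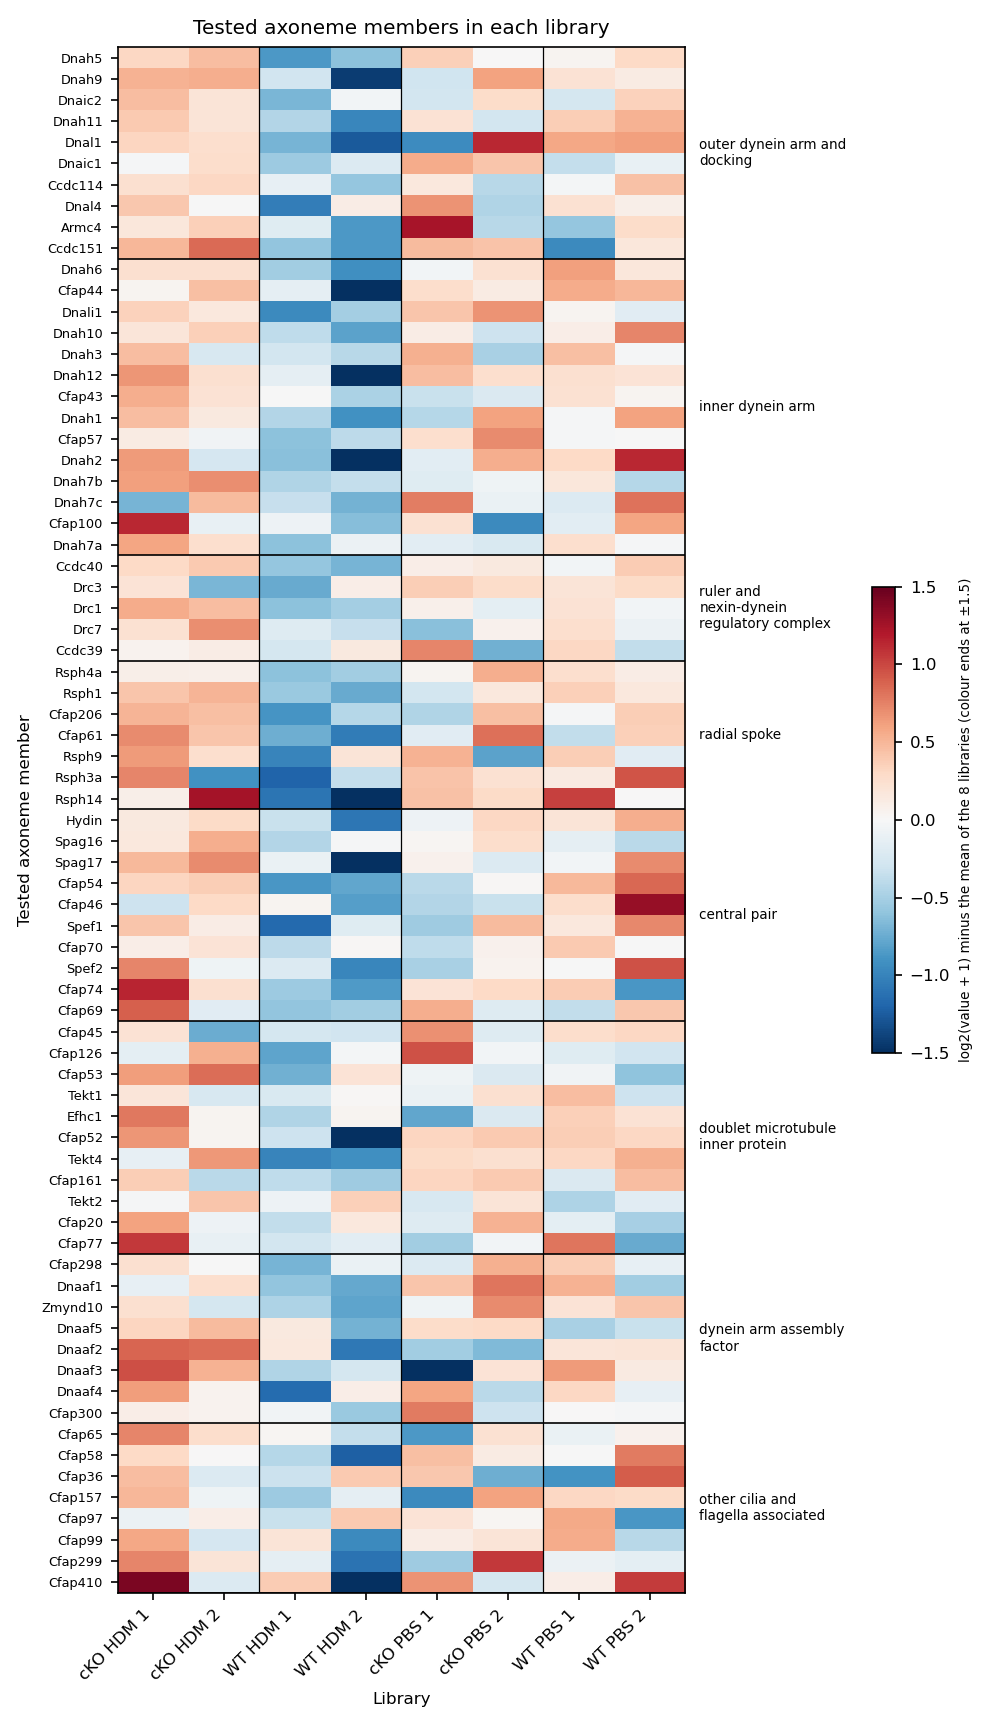
Level of each of the 73 tested members in each library as log2(value + 1) minus the mean of the 8 libraries, grouped by role and ordered by mean level within a role. The WT HDM columns are mostly blue, below the mean, with 127 of the 146 values there negative.

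HDM against PBS was then compared in each genotype. In WT, 66 members were lower under HDM and 7 higher, with a median difference of −0.62, against −0.03 over all genes. No member passed in limma, where 0.519% of all genes passed in either direction and 0.0133% were lower, and none in edgeR, where 0.785% of all genes passed in either direction and 0.0399% were lower. DESeq2 called 3 members lower (Cfap54, Dnah5 and Dnah6), against 0.266% of all genes. At an unadjusted p under 0.05, 25 members were lower and 0 higher (4.43% and 4.5% of all genes). The WT HDM libraries were both below the WT PBS libraries in 46 members and both above in 1, against 20.8% and 21.2% of all genes. Relative to the ciliated cell markers the split was 46 lower to 27 higher, with a median of −0.11 where that of all genes was 0.48. Of the members named for abundance, p-value or human disease, Ccdc39, Cfap126, Cfap65, Dnaic1, Dnaic2, Drc7, Rsph9 and Tekt1 turned positive. Some other members, such as Dnah7b, also did. The smallest adjusted p-values were those of Dnah6, with a difference of −1.11 ± 0.26 (adjusted p = 0.0934, limma), Cfap54, −1.50 ± 0.36 (0.0946), and Dnah5, −0.91 ± 0.24 (0.128). Cfap44 followed at −1.50 ± 0.41 and Hydin at −1.07 ± 0.29, both with an adjusted p of 0.159.

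In cKO, 54 members were higher and 19 lower under HDM, with a median of 0.22 against 0.10 over all genes. No member passed in limma, where 0.0532% of all genes did. At an unadjusted p under 0.05, 5 members were higher (5.38% of all genes) and 0 lower (2.4%), and edgeR and DESeq2 called 0, against 0.0532% and 0.373% of all genes. The cKO HDM libraries were both above the cKO PBS libraries in 21 members and both below in 5, against 19% and 16.7% of all genes. Relative to the ciliated cell markers the split was 43 higher to 30 lower. The members of smallest p were the assembly factors Dnaaf2, with 1.45 ± 0.55 (adjusted p = 0.537, limma), and Dnaaf3, with 1.52 ± 0.63 (0.573), and the doublet protein Cfap53, with 0.87 ± 0.37 (0.573). Dnaaf3 had 58.8 and 43.2 normalized counts in cKO HDM and 8.13 and 34.3 in cKO PBS, so that 1 cKO PBS library, the shallowest of the 8, held the low value.

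Between genotypes under PBS the members showed little shift: 31 had a higher mean in cKO PBS and 42 in WT PBS, with a median of −0.05 against −0.09 over all genes. No member passed in limma, where 0.0% of all genes passed. At an unadjusted p under 0.05, 0 members were higher (2.17% of all genes) and 2 lower (4.79%), both of the central pair, and edgeR and DESeq2 called 0 members and 0.0% of all genes. Cfap46 had 39.0 and 41.9 normalized counts in cKO PBS and 64.3 and 133.7 in WT PBS (−1.18 ± 0.47, adjusted p = 0.694, limma), and Cfap54 differed by −0.87 ± 0.36 (0.694). The libraries did not overlap in 18 members, 8 higher in cKO PBS and 10 lower, against 15.7% and 19.1% of all genes. For Dnah5 the difference was 0.01 ± 0.24, with a 95% interval of −0.49 to 0.51.

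The genotype by treatment interaction, the HDM response of cKO minus that of WT, was positive in 67 of 73 members, with a median of 1.00 against 0.16 over all genes. No member passed in limma, where 0.0266% of all genes did, and 23 were positive and 0 negative at an unadjusted p under 0.05 (4.31% and 3.46% of all genes). edgeR and DESeq2 called 0, against 0.0932% and 0.367% of all genes, and DESeq2 gave Rsph14 no adjusted p. Relative to the ciliated cell markers, 49 were positive and 24 negative, with a median of 0.39 where that of all genes was −0.46. The smallest p belonged to Cfap54, 2.03 ± 0.51 (adjusted p = 0.383, limma), Dnah5, 1.12 ± 0.33 (0.480), and Dnah6, 1.25 ± 0.37 (0.480). The difference between the genotypes' responses was therefore not shown for any single member. Side by side, 48 members were higher under HDM in cKO and lower in WT, 18 were lower in both, 6 were higher in both and 1 was lower in cKO and higher in WT. In 15 members, including Ccdc40, Cfap54, Dnah6, Dnah10, Drc1, Rsph1 and Spag17, the libraries overlapped in neither genotype with HDM higher in cKO and lower in WT, as in 4.3% of all genes.

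**Figure D5:**
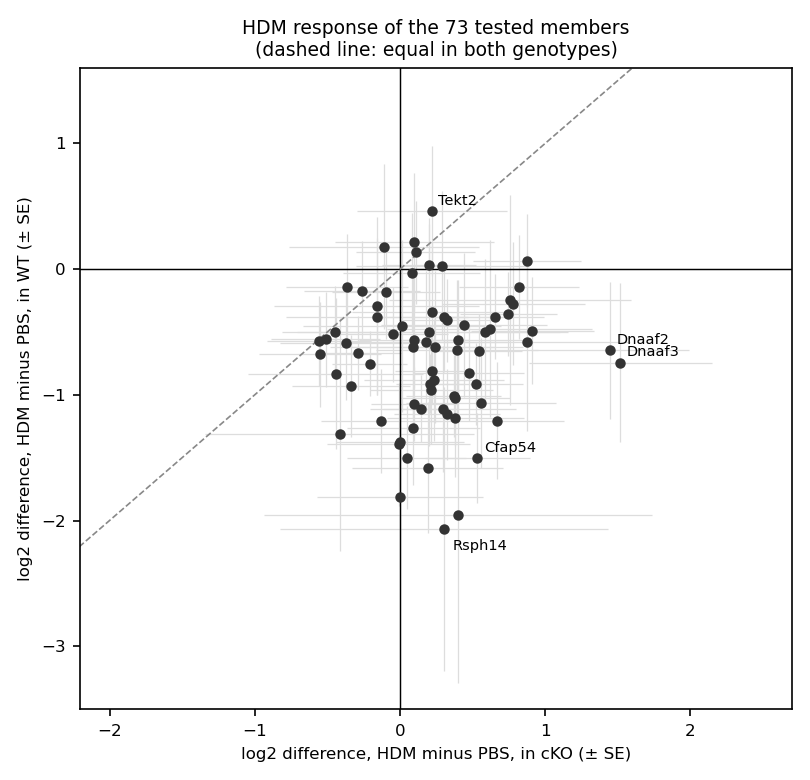
Log2 difference HDM minus PBS of each tested member, in cKO (x axis) and in WT (y axis), on the log2(value + 1) scale with standard errors, with the dashed line where both responses are equal. Most points lie in the lower right quadrant, higher in cKO and lower in WT, and 67 of 73 lie below the dashed line.

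The 14 members with an X-box match did not stand out by their values. The 13 of them that were tested had a median difference under HDM, cKO against WT, of 0.92 (0.01 to 1.46), against 0.87 (0.05 to 2.22) in the 48 tested members with a promoter entry and no match. The printed promoters cover that span: Cfap61 and Cfap44 differed by 1.46 and 1.22, Hydin by 0.92 and Cfap45 by 0.01. For HDM against PBS in WT the medians were −0.65 with a match and −0.62 without.

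Other motile axoneme genes, which the naming rule did not match, were followed as a list of 46, of which 38 were tested. In cKO against WT under HDM 36 of the 38 had a positive difference, 0 passed, 9 were higher and 0 lower at an unadjusted p under 0.05 (5.02% and 4.58% of all genes), and the median was 0.59. Ak7, an axonemal adenylate kinase, had 243.1 and 269.9 normalized counts in cKO HDM and 140.9 and 127.6 in WT HDM (0.93 ± 0.26, adjusted p = 0.158, limma), and Iqcg, a regulatory complex protein, had 122.6 and 200.2 in cKO HDM and 61.3 and 79.9 in WT HDM. In HDM against PBS, 29 of the 38 were lower in WT, with a median of −0.46, and 22 were higher in cKO, with a median of 0.14, and 0 passed in either (at an unadjusted p under 0.05, 6 were lower in WT, against 4.43% of all genes, and 3 higher in cKO, against 5.38%). Foxj1, the transcription factor that turns on the motile cilium programme, had 809.8 and 681.9 in cKO HDM, 379.5 and 394.5 in WT HDM, 707.6 and 485.1 in cKO PBS, and 550.4 and 533.8 in WT PBS. It was lowest in both WT HDM libraries, and its difference of 0.94 ± 0.23 under HDM did not pass (adjusted p = 0.0952, limma).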

How the data were processed

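Airway epithelial cells were sorted from mouse lung, RNA was extracted with TRIzol and directional libraries were made, per the labels' protocols. The authors deposited 1 table with a signal value per gene symbol and library, a read count after normalization. The tools were HOMER and DESeq2 and the build mm10, per the submitters' processing notes. The sources used here do not give the aligner, annotation, versions or use of strand. Within each library 100% of values were whole multiples of the value of 1 read (tolerance 0.01 reads), which gave the read totals.

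Values were analysed as log2(value + 1), so differences understate changes of low genes. Genes with a mean of at least 10 over the 8 libraries (7512) entered 1 limma 3.58.1 model in R 4.3.3 with a mean per group and a variance trend. P-values were two-sided and Benjamini-Hochberg adjusted over all genes, with 0.05 as threshold. Errors on log2 differences are standard errors. The model was also run on simulated data, where it missed the 2-fold changes and most of the 4-fold changes. A member that did not pass may therefore still differ. As alternatives, edgeR 4.0.16 and DESeq2 1.42.0 were run on the recovered reads. Other alternatives changed the pseudocount, filter, normalization, variance model, groups fitted and libraries. Same-numbered replicates did not visibly deviate together (correlations −0.016 to 0.018), so the numbers were not used as pairs. The labels do not say what the numbers mark, and these correlations cannot exclude a small shared effect. No 2 libraries of a group were copies (chi-square per degree of freedom 4.83 to 6.28).

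Genes were named where they passed, were among the 4 most abundant of a role, had one of the 3 smallest p-values of a comparison, or are known in primary ciliary dyskinesia. Dnah12, Dnah3, Dnah10 and other heavy chains, Rsph14, Cfap97, and the non-overlapping genes were named after their values were seen. The members and lists were chosen with earlier results of these data known. Coordinates and exon lengths are from GENCODE M21 (GRCm38), with 3 members matched by an older symbol, and promoters from RefSeq (GRCm38.p6). The 2 members on chromosome 18, Armc4 and Cfap53, have no sequence shown.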

Additional observations from a re-analysis of the deposited data

How the results depend on the processing

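With 2 shallow libraries per group, single members were measured with a median standard error of 0.46 on the log2 scale, and calls turned on the settings. For cKO against WT under HDM, 0 members passed with a pseudocount of 0.2, without a filter, scaled to the ciliated cell markers or without a variance trend, 2 with only the groups compared, 2 with DESeq2, 6 with a minimum mean of 50, and 0 to 3 with 1 library left out (3 without WT HDM replicate 1, 2 without either cKO PBS library, 0 without any other). The median of 0.85 became 0.22 with marker scaling and 0.69 to 0.94 with 1 library left out. For HDM against PBS in WT, where 0 passed, 3 passed with a pseudocount of 5, 5 with a minimum mean of 50, 4 with quantile normalization, 6 with only the groups compared, 3 with DESeq2, and 0 to 3 with 1 library left out (2 without WT HDM replicate 1, 3 without either cKO PBS library). The median of −0.62 became −0.75 with a minimum mean of 50, −0.11 with marker scaling and −0.68 to −0.62 with 1 library left out. For HDM against PBS in cKO, 0 to 1 passed with 1 library left out (1 without cKO PBS replicate 2), and the median was 0.10 with marker scaling and 0.15 to 0.37 with 1 left out, highest without cKO HDM replicate 2. For the interaction, 0 to 3 passed with 1 left out (3 without cKO PBS replicate 2), and the median was 0.89 with a pseudocount of 5, 0.39 with marker scaling and 0.80 to 1.10 with 1 left out. Leaving out a library leaves its group with 1, assumed to vary like the others. With the replicate number as a block, 1 member passed in cKO against WT under HDM and 0 in the other 4 comparisons, which changed no call. Of the values of the named members under these settings, 3773 stayed on the same side of the threshold, 38 passed only under the alternative, and 10 lost the call, all of them Dnah5.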

Other observations

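Among the 13 members that were not tested, 3 were at 0 in all 8 libraries: Cfap97d1, Rsph6a, a spoke head gene known from sperm, and Spag6. Spag6l, a close copy of Spag6 that the rule did not match, had 88.5 and 104.7 normalized counts in cKO HDM, 53.5 and 34.8 in WT HDM, 78.1 and 134.6 in cKO PBS, and 101.8 and 67.3 in WT PBS, with the WT HDM libraries lowest. Rsph3a and Rsph3b are likewise near-identical copies. Tekt5, a tektin known from sperm, was above 0 in 2 libraries, at 2.90 in cKO HDM and 2.61 in WT HDM.

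Exons of 22 members overlapped those of another gene in GENCODE, 20 of them on the opposite strand. Across the 73 members, the Spearman correlation of the difference with merged exon length was 0.214 for cKO against WT under HDM and −0.292 for HDM against PBS in WT. These are descriptions over genes that share the same libraries.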
